A study of Mus musculus with 12 samples.

Results

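Broad open domains are stretches of 3 kb or more joined from the overlapping peaks of 6 cell populations of the mouse embryo. Each population held a peak in them, but a single population need not be open over the whole width. They were chosen by their width and their presence in the 6 deposited peak lists. All peaks on chromosomes 1 to 19 that overlapped by 1 bp or more were merged into union regions. A union region became a domain when it spanned 3000 bp or more, had a peak in all 6 lists and lay outside 9 stretches of repeated genes named in the rule. Of 93083 union regions, 156 met this rule. They were the broad end of 12742 shared regions, that is, regions outside the 9 stretches with a peak in all 6 lists. Another 179 regions of this width with a peak in all 6 lists lay inside those stretches. Outside them, 94 of this width had a peak in fewer than 6 lists. The domains were 3004 to 14699 bp wide, with a median of 3672 bp, against a median of 1031 bp over all shared regions. Width and presence were used for the choice, so they are given as a description.

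Accessibility was measured by ATAC-seq, in which a transposase cuts open DNA, in sorted cells of mouse embryos (embryonic day 7.5). All embryos were homozygous knock-ins with FoxA2 joined to tagRFP on a mixed C57Bl6/J and CD-1 background, unsexed, with the extraembryonic part removed. In dHx embryos FoxA2 also lacked 10 residues of an alpha helix, and in WT embryos it was otherwise intact. Cells from about 10 embryos per sort were sorted by RFP into Negative, Middle and High, with gates set on wild-type and heterozygous embryos, and 2000 to 5000 cells went into each library. The 6 groups were dHx Negative, dHx Middle, dHx High, WT Negative, WT Middle and WT High. Each group had 2 samples and 1 pooled peak list. With 1 list per group, the differences between lists have no replicate check and no p-value was computed.

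Open chromatin is usually found in short stretches, at promoters and at enhancers where transcription factors displace nucleosomes. Wider open stretches are known from arrays of strongly transcribed short genes, such as the replication-dependent histone genes, which are read in S phase, and the tRNA genes, which RNA polymerase III reads. FoxA2 is a forkhead factor of the endoderm, node and notochord that can bind its sites in closed chromatin.

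Promoters of 5 genes in domains are shown so that the letters behind the motif counts can be read. They belong to the 4 widest domains with a promoter entry used here and, for Brd2, to the widest domain of a chromatin regulator. They are taken from RefSeq (GRCm38.p6, from 250 bases before to 50 after the gene start, 5′ to 3′ on the gene's strand). H2bc7 (chr13:23574158-23574457) encodes a histone H2B and H3c3 (chr13:23745472-23745771) a histone H3. Jun (chr4:95052173-95052472) encodes a subunit of the AP-1 factor and Brd2 (chr17:34119851-34120150) a reader of acetylated histones. Speer4e (chr5:14938426-14938725) belongs to the Speer family of glutamate-rich proteins, known from the testis. All 5 genes read on the minus strand. Capitals mark matches to motifs on either strand. The CCAAT box was searched by its own letters. A GC box was searched as GGGCGG. For the TATA box the letters were TATAAA. For a forkhead factor such as FoxA2 the letters were TGTTTAC. The core motif of the factor YY1 was AAGATGGCG.
H2bc7: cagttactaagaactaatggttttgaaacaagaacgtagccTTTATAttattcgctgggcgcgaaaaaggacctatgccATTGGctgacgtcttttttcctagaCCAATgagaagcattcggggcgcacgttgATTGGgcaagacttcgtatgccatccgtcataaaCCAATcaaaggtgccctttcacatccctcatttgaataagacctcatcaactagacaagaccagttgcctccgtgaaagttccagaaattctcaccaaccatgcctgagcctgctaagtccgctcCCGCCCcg
H3c3: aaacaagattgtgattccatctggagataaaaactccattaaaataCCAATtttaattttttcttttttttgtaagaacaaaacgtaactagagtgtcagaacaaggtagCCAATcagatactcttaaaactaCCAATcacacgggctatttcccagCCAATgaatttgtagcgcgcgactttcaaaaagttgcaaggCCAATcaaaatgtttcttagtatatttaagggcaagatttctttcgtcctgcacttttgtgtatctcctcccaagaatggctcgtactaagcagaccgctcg
Jun: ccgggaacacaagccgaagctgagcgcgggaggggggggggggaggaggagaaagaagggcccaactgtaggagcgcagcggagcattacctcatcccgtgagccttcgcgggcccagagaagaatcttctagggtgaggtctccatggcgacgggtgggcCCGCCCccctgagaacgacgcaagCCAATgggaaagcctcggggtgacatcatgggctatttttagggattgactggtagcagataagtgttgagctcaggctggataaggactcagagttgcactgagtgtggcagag
Brd2: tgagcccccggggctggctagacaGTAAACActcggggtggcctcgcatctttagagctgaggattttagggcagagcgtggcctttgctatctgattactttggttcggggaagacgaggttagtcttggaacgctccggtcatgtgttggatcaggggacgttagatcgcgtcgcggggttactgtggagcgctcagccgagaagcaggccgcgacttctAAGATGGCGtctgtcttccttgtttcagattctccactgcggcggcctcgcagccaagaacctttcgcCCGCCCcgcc
Speer4e: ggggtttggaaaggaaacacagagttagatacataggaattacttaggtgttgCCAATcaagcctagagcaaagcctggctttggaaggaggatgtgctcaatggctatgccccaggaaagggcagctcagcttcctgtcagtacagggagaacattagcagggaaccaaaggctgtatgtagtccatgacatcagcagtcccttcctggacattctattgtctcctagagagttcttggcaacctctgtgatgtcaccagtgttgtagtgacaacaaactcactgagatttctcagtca

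The H2bc7 promoter held 4 CCAAT boxes, 1 GC box and 1 TATA box, and the H3c3 promoter held 5 CCAAT boxes. In H2bc7 the TATA letters stood on the other strand, 209 bases before the start, and the GC box lay after the start. The Jun promoter held 1 CCAAT box and 1 GC box, and the Speer4e promoter 1 CCAAT box. The Brd2 promoter held 1 GC box, 1 YY1 core and a forkhead match 226 bases before its start. CpG content is given as the observed number of CG dinucleotides over the number that the C and G content gives. It was 0.854 in H2bc7, 0.875 in H3c3, 0.594 in Jun, 0.938 in Brd2 and 0 in Speer4e. A match describes the letters only.

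In all, 83 promoter entries of 74 genes had their start in a domain. Their median CpG content was 0.758 (95% interval of the median 0.653 to 0.827), against 0.804 in 1887 promoters of shared regions of 1500 bp to under 3000 bp and 0.389 over all 31396 promoters of the table. The 24 histone promoters differed in base composition from the other 59. Their median G and C content was 44.2%, against 62.3% in the other 59. The TATA box stood in 54.2% of the histone promoters, in 0 of the other 59 (up to 6.06% by the exact 95% interval) and in 13.6% of all promoters. The CCAAT box stood in 87.5% of the histone promoters, 50.8% of the others and 37.3% of all promoters. The GC box stood in 6 of the 24 histone promoters, 62.7% of the others and 36% of all promoters. The 1887 promoters of shared regions of 1500 bp to under 3000 bp had the GC box more often, in 74.8%. They held the TATA box in 5.67% and the CCAAT box in 42%. The histone genes often lie head to head, so their 300-base windows partly overlap and the same match can count for both genes. The forkhead letters TGTTTAC stood in 2 of the 83 promoters (2.41%, against 3.71% of all promoters) and the form TATTTAC in 0 of 83 (up to 4.35%, against 3.08%). Of those 1887 promoters, 1.96% held the first form and 1.22% the second. The Ets core CCGGAAG stood in 7 of 83 (8.43%, against 9% of all promoters and 12.5% of those 1887). The cAMP response element TGACGTCA stood in 4 (4.82%, against 1.83% of all and 3.34% of those 1887). The E-box CACGTG stood in 5 (6.02%, against 7.14% of all and 9.86% of those 1887). The NRF1 core GCGCATGCG stood in 5 (6.02%, exact 95% interval 1.98 to 13.5%, against 1.74% of all). It stood in 2.65% of those 1887 and in 4.27% of promoters of shared regions under 1500 bp. Windows overlap outside the histone genes too. The NRF1 matches include overlapping windows of Mbd6 and those of Brd2 and H2-DMa. The cAMP element matches include the overlapping windows of H2ac11 and H2bc11. No motif searched holds the letters of another on either strand, and these counts are a description.

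The domains differed from the other shared regions in what they held. Grouped by annotation after their values were seen, 9 domains held histone genes, 9 held tRNA genes, 41 held an end of another protein-coding gene and 22 an end of another kind of gene. A further 35 lay inside a gene and away from both ends of its annotated span, and 40 lay outside genes. Of these 35, 2 held another start of the gene inside its span, at Pdgfa and Cdc42ep4. The grouping used the ends of annotated spans only. Starts of the coding genes Gse1, Sin3a and Zbtb11 thus lay in domains counted under ends of another kind of gene. Histone genes stood in 5.77% of the domains (exact 95% interval over regions 2.67 to 10.7%), against 0.306% of all shared regions. The tRNA genes stood in 5.77%, against 1.09%. Ends of other coding genes stood in 26.3% of the domains (19.6 to 33.9%), against 57.5% of the shared regions of 1500 bp to under 3000 bp and 50.5% of all. Ends of other genes, many with the names of predicted genes or pseudogenes, stood in 14.1% of the domains, against 4.06% of all shared regions. Domains outside genes made up 25.6%, against 15.6%.

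**Figure D1:**
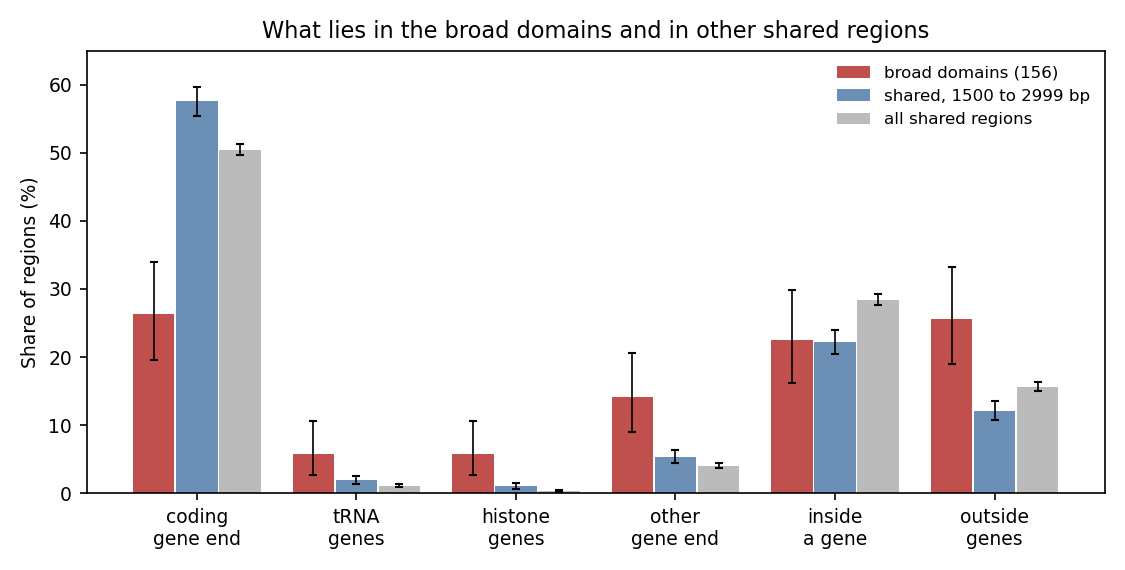
Share of regions (%) that hold each kind of annotation, for the 156 broad domains (red), the shared regions of 1500 bp to under 3000 bp (blue) and all shared regions (grey). Bars start at 0 and the lines are exact 95% intervals over regions. The red bar is the lowest for coding gene ends (26.3%) and the highest for tRNA genes, histone genes, ends of other genes and regions outside genes.

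A gene start lay in fewer of the broad domains than of the narrower regions, although a wider region has more room for one. A start stood in 49 of the 151 domains on chromosomes for which starts were used (32.5%, 25.1 to 40.5%). It stood in 59.6% of the shared regions of 1500 bp to under 3000 bp and in 52.9% of all shared regions. Counting either end of a gene's annotated span, the share was 51.9% in the domains, against 65.7% and 55.9%. The domains outside genes lay at a median of 36.3 kb from the nearest coding gene, and 10 of these 40 lay over 100 kb away.

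Few coding genes of any kind stood in a domain, 84 of all 20665 (0.406%). At that share less than 1 gene of the lineage lists below would stand in one. No domain held a start or an end of any of 30 endoderm genes, 25 node and notochord genes, 25 primitive streak genes or 30 epiblast and neural genes. The same was 0 of 26 for lateral and cardiac mesoderm, 0 of 21 for blood and endothelium, 0 of 15 for extraembryonic ectoderm and 0 of 19 for visceral endoderm. Narrower shared regions stood at 35.1% of the 191 entries of these 8 lists, against 40.1% of all coding genes. The lists ran from 2 of 21 for blood and endothelium to 14 of 30 for both endoderm and epiblast genes. The widest at an endoderm gene, at Eomes, a T-box factor of mesoderm and endoderm, was 2430 bp wide (chr9:118477403-118479832). The region at Foxa2 itself (chr2:148045181-148047200) was 2020 bp wide. The lists with a member in a domain were histone genes (3 of 20), ubiquitous housekeeping genes (3 of 29), early-response genes (2 of 30), chromatin regulators (2 of 38) and signalling feedback genes (1 of 32). None of 36 ribosomal genes, 38 Hox genes or 24 long noncoding and imprinted genes stood in one.

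As a check of the sorted populations, peaks over the promoters of Foxa2, of the anterior endoderm gene Cer1 and of the streak and notochord gene T stood in all 6 lists. Noto, a notochord factor, had a peak in dHx Negative and WT High only, and Mesp1, of early mesoderm, in WT High only. Pou5f1, of the epiblast, had none at its promoters, and Sox2 had one in dHx Negative, dHx Middle, dHx High and WT Negative. Open promoters do not tell RNA levels, and fewer open cells and less open chromatin per cell cannot be told apart in pooled cells. Read totals were not used here. Relative depth was taken from a background, in mean pileup per base, fitted to the scores of each list. The fit takes the scores as −log10 of p, which is not stated for them. It was 1.57, 0.786 and 0.476 in dHx Negative, Middle and High, and 1.08, 1.5 and 0.879 in WT Negative, Middle and High. The dHx High list thus had the lowest fitted depth.

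Histone genes gave 9 of the domains. Of 68 histone genes in the table, 64 stood in a shared region and 25 in a domain (36.8%). All but 1 of these domains lay in the histone cluster of chromosome 13. The widest (chr13:23570044-23578070, 8027 bp) held the starts of H2ac8, H2bc8, H2bc7, H2ac7 and H3c4, which encode histones H2A, H2B and H3. Peaks covered 64.5, 74.4 and 53.9% of it in dHx Negative, Middle and High, and 86.5, 70.7 and 80.2% in WT Negative, Middle and High. The H3c3 domain (6516 bp, with H2bc3) was covered over 39.3, 41.3 and 37.8% in dHx Negative, Middle and High, and over 85.8, 34.8 and 61.6% in WT Negative, Middle and High. Its WT Negative value stood above the other 5. The H2bc23 domain (5093 bp, with H2ac23 and H4c17) stayed between 79.6 and 91.9% in every list. By the authors' score, ranked within each list, the 9 histone domains stood at a median of the 99th percentile.

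The histone domains were covered less in dHx than in WT in most comparisons, by small amounts. Covered bases were lower in dHx in 9 of 9 domains at Negative, 7 of 9 at Middle and 8 of 9 at High. Over all shared regions, covered bases were lower in dHx in 43, 39.1 and 47.1%. The median log2 ratio of dHx over WT was -0.23 at Negative, -0.07 at Middle and -0.25 at High. At Negative 1 domain was 1.5-fold or more lower (background 10.4% of all shared regions), and at High 1 (background 12.8%). At Middle 0 were (background 9.14%), and 0 were 1.5-fold or more higher at any level. The 22 histone regions of 1500 bp to under 3000 bp had medians of -0.09, 0.09 and -0.05. The H4c9 domain (6332 bp) was covered over 72.2, 57.0 and 61.2% in dHx Negative, Middle and High, against 97.3, 75.5 and 86.8% in WT. In the H2ac6 domain (3890 bp, with H2bc4), the values were 56.2, 58.4 and 55.9% in dHx, against 80.6, 65.6 and 75.3% in WT. In both, every dHx value lay below every WT value.

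The tRNA genes filled another 9 domains. They held 34 of 391 tRNA genes (8.70%), of which 222 stood in a shared region. A run of 3 such domains lay on chromosome 1, between Fcgr3 and the tRNA genes named n-TEctc8 and n-TEctc7, and the widest spanned 7403 bp (chr1:171067715-171075117). Peaks covered 96.6, 94.0 and 79.5% of the 3 domains in dHx Negative, Middle and High, and 92.4, 98.4 and 74.5% in WT Negative, Middle and High. None of the 9 tRNA domains passed 1.5-fold between dHx and WT at any RFP level. Over all shared regions, 10.4, 9.14 and 12.8% were 1.5-fold or more lower in dHx at Negative, Middle and High, and 18.1, 22.1 and 16.4% higher. The tRNA domains' median log2 ratios were 0.03, 0.06 and -0.04 at Negative, Middle and High. The domain at Hes7 (3872 bp), a gene of the segmentation clock, held 4 tRNA genes as well.

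**Figure D2:**
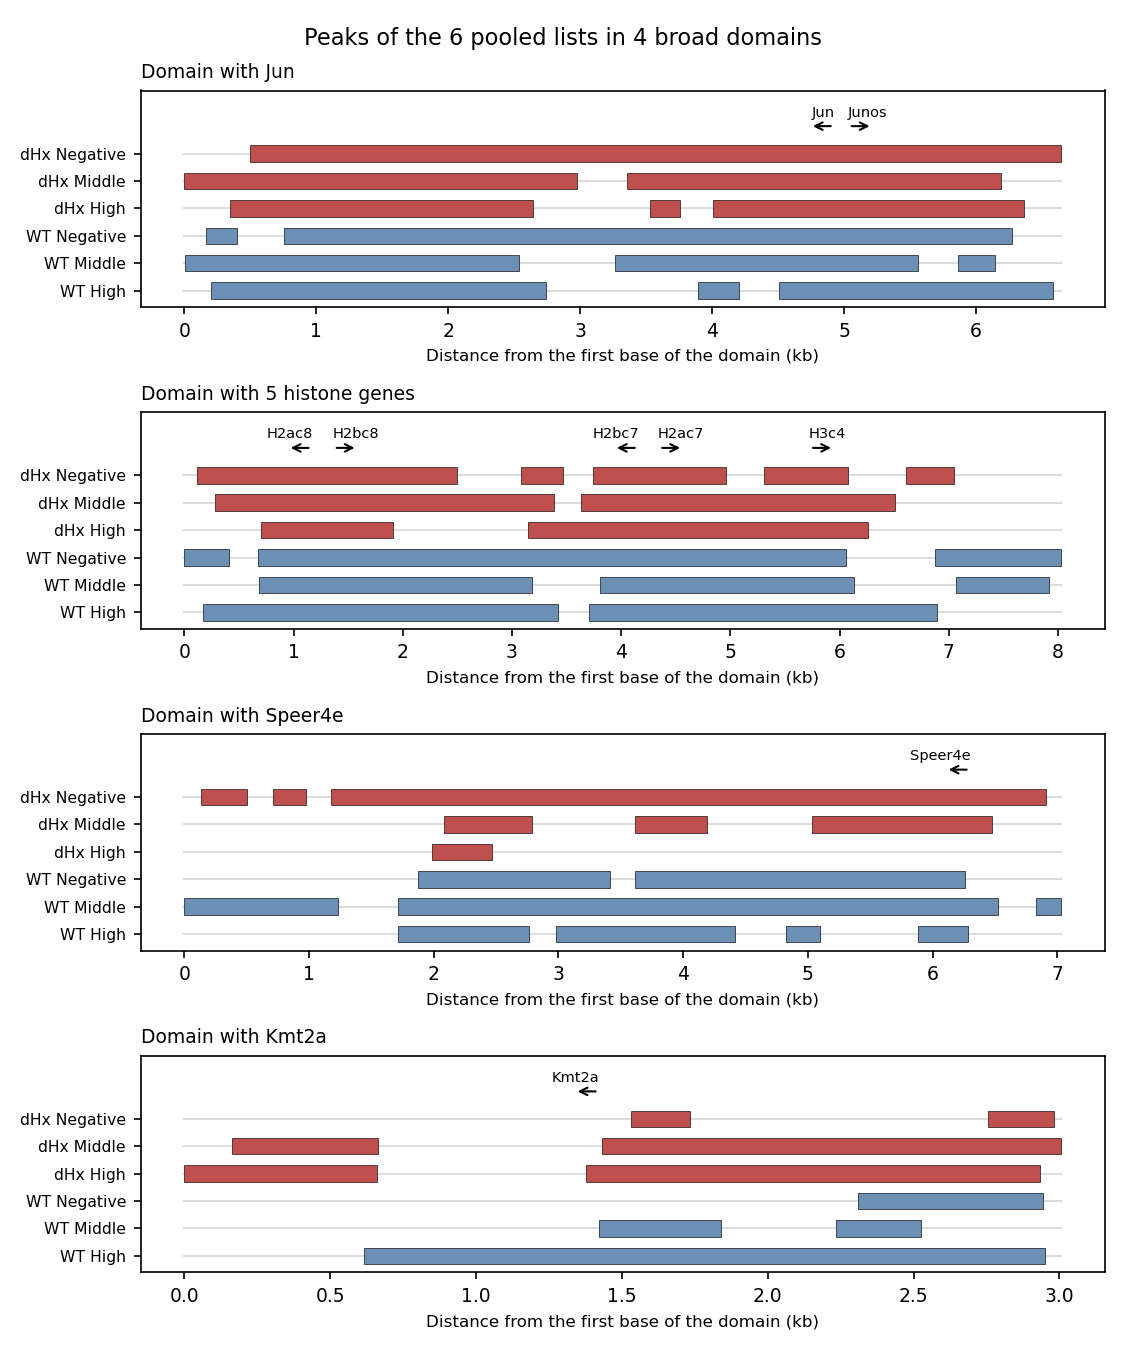
Peaks (bars) of the 6 pooled lists in 4 broad domains, by distance from the first base of the domain (kb), with dHx lists in red above WT lists in blue and arrows at gene starts. The Jun domain is covered over 73.6% or more in every list, the histone domain is split into 2 or more peaks in every list, the Speer4e domain holds 1 short peak in dHx High, and the Kmt2a domain is filled mainly in dHx Middle, dHx High and WT High.

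Among coding genes outside these families, a few early-response and housekeeping genes stood in a domain. Apart from Jun, the domains named here were narrower than the median domain of 3672 bp. The Jun domain (chr4:95047291-95053934, 6644 bp) reached past the gene and the start of its antisense neighbour Junos. It was covered over 92.5, 87.4 and 73.6% in dHx Negative, Middle and High, and over 86.5, 77.0 and 74.1% in WT Negative, Middle and High. The Jun values differed little between genotypes at High. The domain at Hes1, a Notch target (3513 bp), was covered over 79.2, 49.0 and 55.1% in dHx Negative, Middle and High, and over 56.7, 50.5 and 51.5% in WT. Hspa8, a constitutive chaperone (3083 bp), was covered over 87.1, 53.6 and 22.9% in dHx, and over 98.2, 95.6 and 47.4% in WT, lowest at High in both genotypes. Ubb, a housekeeping gene that encodes ubiquitin (3042 bp), was covered over 44.1, 94.1 and 54.4% in dHx, and over 48.9, 70.8 and 53.7% in WT, so it was highest at Middle.

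In the domains at chromatin and Wnt genes, the order of the lists differed from gene to gene. The domain at Kmt2a, a histone H3K4 methyltransferase (chr9:44879865-44882869, 3005 bp), was covered over 14.3, 69.0 and 73.7% in dHx Negative, Middle and High, and over 21.1, 23.6 and 77.8% in WT. It was open over most of its width at High in both genotypes, and at Middle in dHx but not in WT. Its log2 ratio of High over Negative in dHx, 2.36, was the highest of the domains. The Brd2 domain (4025 bp) was covered over 74.9, 70.8 and 80.2% in dHx, and over 85.7, 45.5 and 73.3% in WT. Tcf7l1, a repressor of Wnt targets (3044 bp), was covered over 51.3, 43.3 and 59.0% in dHx, and over 39.9, 21.8 and 67.7% in WT, highest at High in both genotypes.

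Most of the 10 widest domains lay outside genes. The widest, of 14699 bp, lay inside the predicted gene Gm16090 (chr18:20615013-20629711). Peaks covered 81.5, 40.2 and 40.1% of it in dHx Negative, Middle and High, and 3.27, 95.6 and 54.2% in WT. A single peak of 480 bp gave its WT Negative value. The second, of 11126 bp, lay in Ulk4, a gene of a kinase family. It was covered over 31.7, 11.1 and 14.9% in dHx and over 35.3, 66.0 and 57.3% in WT. Every dHx value was below every WT value. The third (10391 bp, with Galr1 as the nearest coding gene at 222 kb) was covered over 98.7, 68.5 and 90.5% in dHx and over 98.4, 94.7 and 97.6% in WT. The others of the 10 widest lay outside genes apart from the H2ac8 domain. Their nearest coding genes were Gm10354 (10305 bp wide, at 1.18 kb), 1700008P02Rik (10190 bp, at 308 kb) and Olfr161 (10070 bp, at 351 kb). The rest were Scaf8 (8388 bp, at 81.6 kb), Vmn1r3 (7896 bp, at 1.72 kb) and Vmn1r238 (7852 bp, at 1.77 kb). Here and below, a domain outside genes is called near its nearest coding gene, whatever the distance. The strongest domain by the authors' score lay inside Atp6v1h (chr1:5108475-5114679, 6205 bp), with scores of 1927, 2085 and 1561 in dHx Negative, Middle and High, and 1762, 2257 and 1931 in WT. The scores grow with depth and were compared only within a list.

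The members nearest the width limit were Ifna13 (3004 bp), Kmt2a (3005 bp) and a region near Pisd (3006 bp). Just outside it were the shared regions at Etv1, 1 bp short of the limit, and near Alkbh5 and near Epha3, each 5 bp short of it. The limit therefore cuts through a continuous range of widths. The union width also rests on the joining of overlapping peaks across lists: 58 domains held no single peak of 3 kb or more in any list. Another 13 held one in all 6. In every list, 54 domains were covered over more than 50% and 2 over at least 90%.

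Several domains lay next to each other. With a limit of 100 kb, 44 of the 156 domains had another domain beside them (28.2%). Of the 2233 shared regions of 1500 bp to under 3000 bp, 33.4% had another of that set beside them. These shares cannot be compared, since the larger set gives each region more possible neighbours. Runs of 3 or more domains numbered 7, and their values are given over all bases of a run. The longest was 9 domains within 74.6 kb around the Speer genes (chr5:14915795-14990436). It ended just before a stretch of repeated genes that the rule left out, which starts at 15 Mb. Peaks covered 81.2, 33.1 and 15.5% of these 9 domains in dHx Negative, Middle and High, and 69.9, 88.1 and 46.3% in WT. All 9 had their lowest cover in dHx High, which was the least covered list in 41.7% of all domains and 11.3% of all shared regions. The run of 4 near Sfi1 on chromosome 11 was covered over 82.0, 61.4 and 54.3% in dHx and over 95.3, 87.6 and 86.3% in WT. Its domains were unlike each other, at 12.6 to 95.3% in dHx Middle and 41 to 100% in WT Middle. The run of 3 at Vmn1r2, near the start of chromosome 4, was covered over 79.1, 55.2 and 16.4% in dHx and over 74.3, 85.4 and 68.3% in WT. Its 3 domains stood at 29.5 to 81.4% in dHx Middle. The run of 3 at Gm13244 on chromosome 4 was low in every dHx list, at 29.5, 27.1 and 22.3%, against 93.4, 76.7 and 53.8% in WT Negative, Middle and High. The run of 3 at Gm12625 on chromosome 11 was covered over 87.9, 11.7 and 13.6% in dHx and over 21.2, 58.5 and 41.2% in WT. The histone run from H2bc13 on chromosome 13 stood at 76.8, 78.6 and 80.4% in dHx and 84.1, 82.6 and 84.2% in WT.

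**Figure D3:**
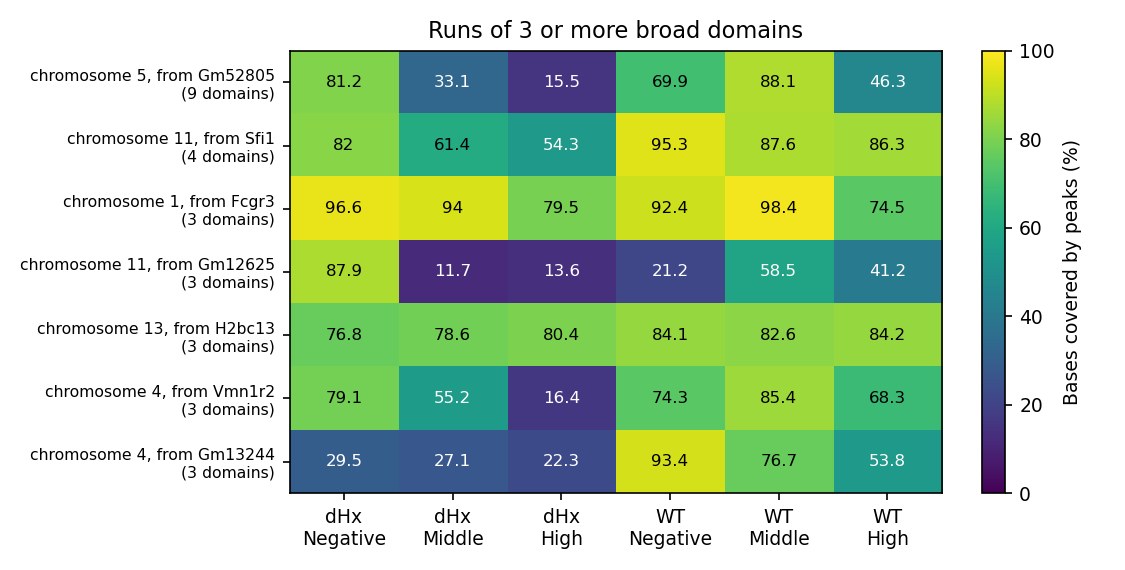
Share of bases covered by peaks (%, colour and number) in the 7 runs of 3 or more broad domains (rows, named by chromosome and first domain) in the 6 pooled lists (columns). The run of tRNA genes from Fcgr3 and the histone run from H2bc13 stand at 74.5% or more in every list, and the runs from Gm52805, Gm12625 and Vmn1r2 hold values under 20% in dHx High.

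Position and score set some domains apart. Within the first 3.6 Mb of a chromosome, which in the mouse is the centromeric end, lay 13 of the 156 domains (8.33%, 4.51 to 13.8%), against 0.777% of all shared regions. These 13 were covered over 75.9, 54.2 and 32.7% in dHx Negative, Middle and High, and over 73.7, 85.8 and 68.9% in WT. Reads from near-identical copies cannot be placed on one copy with certainty, and the copy number of these sequences was not examined here. As a sign of copies, domains with a score of 20 or more in at least 5 lists were searched for another shared region with the same top score in 5 lists. This was found for 5 of 82 domains (6.10%), against 31 of 2964 among all shared regions. One pair, at Gm3255 and Gm52298 on chromosome 17, had equal scores in all 6 lists and equal widths of 3041 bp. Another was near Hspb3 on chromosome 13 and near Smr2 on chromosome 5, with equal scores in 5 lists. The tRNA domains at Gm26232 and Gm10685 on chromosome 3 were 4552 and 4551 bp wide and were both covered over 80.4% in dHx High and 76.0% in WT High. Their top scores were equal in dHx Negative, WT Negative and WT High and differed in the other lists, such as dHx Middle, with 82.5 at Gm26232 and 84.3 at Gm10685. Whether such pairs share reads was not tested.

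Across all 156 domains, the covered part was lowest in dHx High. The median covered part was 79.5, 59.9 and 55.3% in dHx Negative, Middle and High, and 77.5, 76.2 and 67.7% in WT Negative, Middle and High. Single domains ran from 14.3 to 100% in dHx Negative, from 9.61 to 100% in dHx Middle and from 5.09 to 100% in dHx High. They ran from 3.27 to 100% in WT Negative, from 14 to 100% in WT Middle and from 10.8 to 100% in WT High. The dHx High list was the least covered of the 6 in 65 domains (41.7%), against 11.3% of all shared regions. In dHx High 38 domains were under 25% covered (24.4%), against 4 in WT High (2.56%). Over all shared regions these shares were 1.55% in dHx High and 1.31% in WT High. In the 2233 shared regions of 1500 bp to under 3000 bp, by contrast, the median covered part was 71.3% in dHx High, against 67.6% in WT High. The fitted depth moves with these values, being lowest in dHx High, as is the number of single peaks of 3 kb or more (34). The part of either in the result was not tested.

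**Figure D4:**
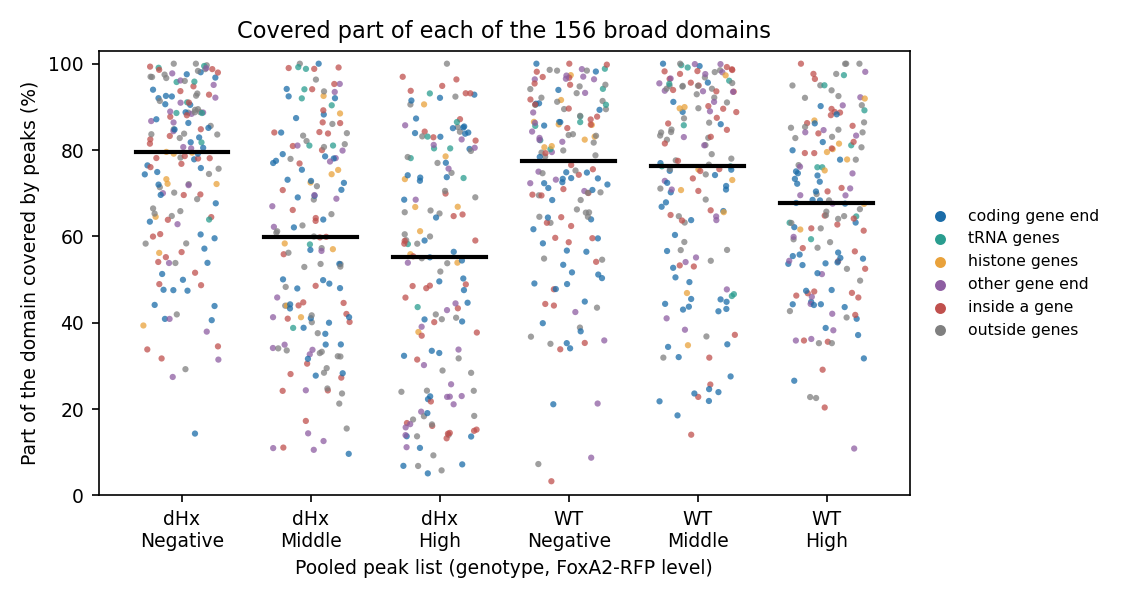
Part of each of the 156 broad domains covered by peaks (%) in the 6 pooled lists, with dHx lists on the left. Each point is 1 domain, coloured by what it holds, and the black line is the median, which is 55.3% in dHx High and 67.7% in WT High.

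The comparison of dHx with WT asks whether the helix of FoxA2 matters for open chromatin. The union width that chose the domains is made of the same peaks as the covered bases. On chromosomes 1 to 19, single peaks of 3 kb or more numbered 219, 68 and 34 in dHx Negative, Middle and High. In WT they numbered 154, 183 and 58. Lists with wide peaks thus weighed more in the choice. The fitted depth was 0.476 in dHx High and 0.879 in WT High, and 0.786 in dHx Middle and 1.5 in WT Middle. The part of the choice and of depth in these ratios was not tested. At High, dHx domains were covered less: the median log2 ratio of covered bases was -0.24 (95% interval of the median over domains -0.48 to -0.13), against 0.03 over all shared regions. In dHx High, 57 domains were 1.5-fold or more lower (36.5%, background 12.8% of all shared regions) and 11 were 1.5-fold or more higher (7.05%, background 16.4%). Neighbouring domains were counted singly in these shares and in the interval, though they may not be separate cases. Every domain was lower in the Speer, Sfi1, Vmn1r2, Gm13244 and Gm12625 runs, and 2 of 3 in the tRNA and histone runs. At Middle the median was -0.12 (-0.26 to -0.04), against 0.13. In dHx Middle, 48 domains were lower (30.8%, background 9.14%) and 14 were higher (8.97%, background 22.1%). At Negative the median was 0.05, against 0.08, with 17 domains lower (10.9%, background 10.4%) and 17 higher (10.9%, background 18.1%). In the shared regions of 1500 bp to under 3000 bp the medians were 0.08, 0.15 and 0.07 at Negative, Middle and High. All 3 dHx lists lay below all 3 WT lists in 9 domains, against a background of 2.7% of all shared regions, and above them in 1 domain, at Gpc6, against a background of 6.84%. Gpc6 encodes a cell-surface glypican, and its domain was covered over 81.8, 79.0 and 83.8% in dHx Negative, Middle and High, against 70.7, 65.9 and 53.6% in WT.

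The domains differed by kind in their ratios of dHx over WT. At High, the median log2 ratio was 0.02 in the 41 domains at coding gene ends, -0.04 in the 9 tRNA domains and -0.25 in the 9 histone domains. It was -0.90 in the 22 domains at ends of other genes, -0.43 in the 35 inside genes and -0.45 in the 40 outside genes. Of these 22, 3 lay in the Gm12625 run and 2 each in the Speer, Sfi1 and Gm13244 runs. Domains of the same run were counted singly, so the kinds are not made of separate loci only. Of the 57 domains 1.5-fold or more lower in dHx High, 10 stood at coding gene ends, which is 24.4% of that kind, against 8.72% of all shared regions of that kind. At ends of other genes there were 14 (63.6%, against 14.3%), inside genes 14 (40%, against 15.3%) and outside genes 18 (45%, against 20.7%). At histone genes there was 1 (11.1%, against 20.5%) and at tRNA genes 0 (against 18%). At Middle the medians were 0.17, 0.06 and -0.07 for coding ends, tRNA and histone genes, and -0.58, -0.23 and -0.58 for ends of other genes, inside and outside genes. At Negative they lay between -0.23 and 0.19. In narrower shared regions of 1500 bp to under 3000 bp the median at High was 0.12 at coding gene ends, 0.10 at ends of other genes, 0.02 inside genes and -0.18 outside genes.

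**Figure D5:**
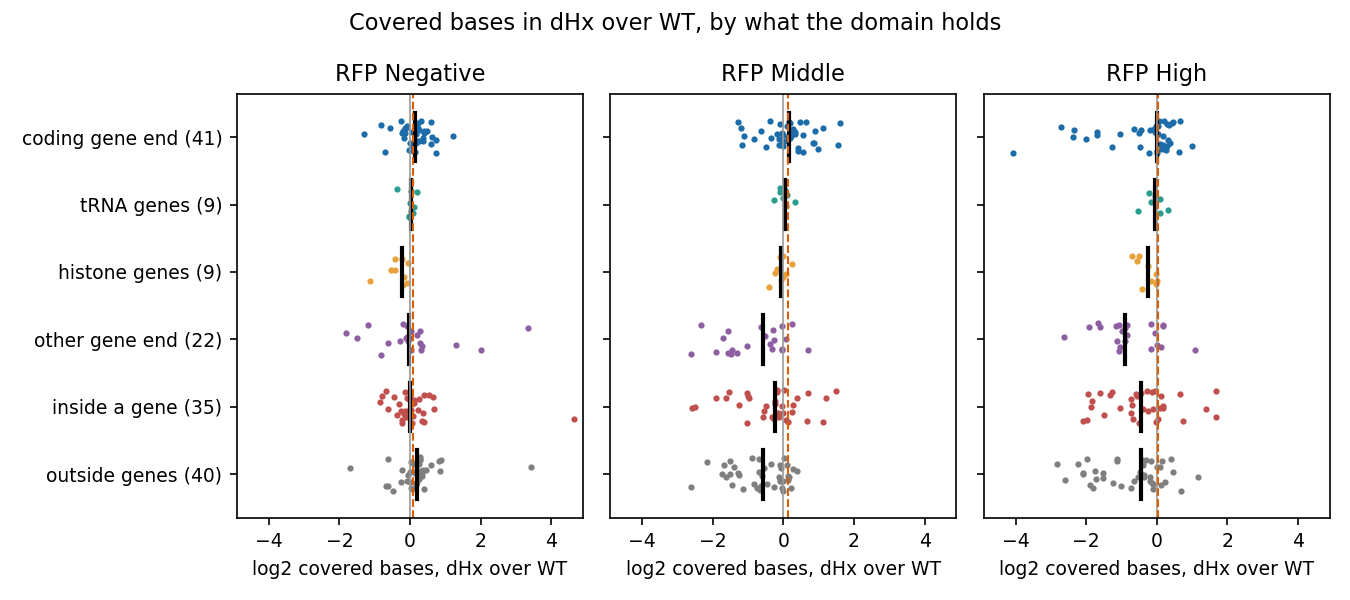
Log2 ratio of covered bases in dHx over WT for each of the 156 broad domains (points), by what the domain holds (rows) and by RFP level (panels). Black bars are medians, the grey line is 0 and the dashed line is the median of all shared regions. At High, the median is -0.90 for ends of other genes and 0.02 for coding gene ends.

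The lowest ratio of dHx over WT at High was at Duxf3, a copy of the double-homeobox Dux genes (chr10:58229166-58234256, 5091 bp). It had 259 covered bases in dHx High, against 4387 in WT High, a log2 ratio of -4.08. Its other lists held 4990 bases in dHx Negative and 3998 in dHx Middle, and 3255 in WT Negative and 5091 in WT Middle. Next were the domain near Vmn1r2, with 623 bases in dHx High and 4421 in WT High (-2.83), and Speer4e, with 480 and 3151 bases (-2.71). The highest ratios were at a start within Cdc42ep4, an effector of the GTPase Cdc42 (3149 bases in dHx High and 984 in WT High, 1.68), inside Wdr60, a cilium gene (2513 and 786, 1.68), and at a start within Pdgfa, a growth factor gene (3700 and 1416, 1.39).

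At Middle, the lowest ratios were near Sfi1 (641 bases in dHx Middle, 3929 in WT Middle, -2.62), at Gm12625 (469 and 2874, -2.62) and inside Ulk4 (1231 and 7347, -2.58). The highest were at Srgap2 (2336 and 767, 1.61), Kmt2a (2074 and 709, 1.55) and Wdr60 (3445 and 1232, 1.48). At Negative, the lowest were 3 neighbours, at Gm13244 (905 bases in dHx Negative, 3201 in WT Negative, -1.82), near Zfp980 (1032 and 3359, -1.70) and at Vmn2r-ps15 (1199 and 3382, -1.50). The highest were Gm16090 (11976 and 480, 4.64), a domain near Gm2244 (2634 and 244, 3.43) and Gm12620 (3384 and 334, 3.34). Wdr60 thus stood among the 3 highest at both Middle and High.

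The comparison of High with Negative sets FoxA2-rich cells beside cells without the signal. It shares its lists with the comparison of genotypes, so the values are not independent of those above. In WT the median log2 ratio of High over Negative was -0.13 (-0.21 to -0.08), against 0.12 over all shared regions. In WT High, 29 domains were 1.5-fold or more lower (18.6%, background 11.6%) and 16 were higher (10.3%, background 22.5%). In dHx the median was -0.41, against 0.07. In dHx High, 67 domains were lower (42.9%, background 12.9%) and 10 were higher (6.41%, background 19.7%). Neighbouring domains were counted singly here too. By kind, the dHx medians were -0.16 at coding gene ends, -0.14 at tRNA genes and -0.06 at histone genes, and -1.04 at ends of other genes, -0.52 inside genes and -0.61 outside genes. The WT medians by kind all lay between -0.25 and -0.03. The fitted depth was 0.476 in dHx High and 1.57 in dHx Negative, and 0.879 in WT High and 1.08 in WT Negative. Neither its part in these values nor that of the choice by union width was tested.

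In WT, the domains lowest in High over Negative were Gm10557 (340 bases in WT High, 2596 in WT Negative, -2.93), Wdr60 (786 and 3286, -2.06) and Ifna13, an interferon gene (953 and 3004, -1.66). The highest were Gm16090 (7972 and 480, 4.05), the domain near Gm2244 (1387 and 244, 2.51) and Gm12620 (1698 and 334, 2.35). All 3 of these also stood highest for dHx over WT at Negative, since both ratios divide by the same low WT Negative values. In dHx, the lowest were Duxf3 (259 bases in dHx High, 4990 in dHx Negative, -4.27), Speer4e (480 and 6370, -3.73) and the domain near Gm2244 (229 and 2634, -3.52). The highest were Kmt2a (2215 and 430, 2.36), Pdgfa (3700 and 1922, 0.94) and a domain inside Dpf3, a chromatin remodelling gene (3486 and 1987, 0.81).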

How the data were processed

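Peak lists on the mouse build mm10 were given for 12 ATAC-seq samples in 6 groups of 2. STAR 2.5.2a and MACS2 stand in the list of tools, per the submitters' processing notes. What each was used for is not stated there. Because the names of the deposited peaks say Pooled, a list was taken as the joint peaks of both samples of its group. The fifth column of the deposited lists has no name, and from its values it was taken as a −log10 value (of p or q) by the authors' peak caller. These scores were used only within a list, apart from the search for equal scores.

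Lines with the same start and end were joined to 1 peak. Covered bases are the summed lengths of a list's peaks in a region. Ratios are log2 of dHx over WT or of High over Negative, with no pseudocount since all values are above 0. A difference was counted at 1.5-fold or more. Shares carry Clopper-Pearson 95% intervals and medians order-statistic 95% intervals. Both count regions, which are not replicates. The fitted background is the mean of a Poisson distribution fitted to the 40 lowest distinct scores of a list. It assumes that the scores are −log10 of p, and if they are of q it need not measure depth. Read totals were not used, so depth is known only as that estimate. Gene ends and promoters came from RefSeq tables of GRCm38.p6. Hes1, Sox17 and Hand1 had no promoter entry. A gene was counted as in a domain when a start or an end of it lay there. The merging was checked on simulated peaks.

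The members, the gene lists, the annotation classes and the limit of 100 kb were chosen with earlier results of these data known. Named domains were the 10 widest, the 3 highest and 3 lowest per comparison, up to 4 per gene list, the members nearest the width limit, the runs of 3 or more and, after their values were seen, a few others such as Gpc6, Hes7 and H4c9. One domain that the rule names is not reported here. Alternatives were other joins, widths, score limits, list lengths and folds. Python 3.11.15 with pandas, numpy and scipy was used.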

Additional observations from a re-analysis of the deposited data

Results flagged for a closer look

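In 4 domains the difference between genotypes turned round between RFP levels, by 2-fold or more each way, which was not tested. At Gm12625 the log2 ratio of covered bases in dHx over WT was -1.92 at High and 2.03 at Negative. At Gm12620 it was -1.67 at High and 3.34 at Negative, and at Gm12612 -1.14 at High and 1.31 at Negative. These 3 domains form the run on chromosome 11. At the domain near Gm2244 on chromosome 14 it was -2.60 at High and 3.43 at Negative. In all 4, peaks covered 78.3% or more in dHx Negative and 35.9% or less in WT Negative.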

How the results depend on the processing

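Of 101 values recomputed under other settings, 67 stayed within the interval or range of the reported value, 33 moved and 1 reversed. Joining peaks up to 100 bp apart, a score of 5 or more and lists of equal length moved none of the 14 results. With a width of 2500 bp or more there were 327 domains, of which 45.2% held a gene start. Their median log2 ratios were -0.11 (dHx over WT, High), -0.032 (Middle) and -0.072 (High over Negative, WT). With 4000 bp or more there were 61 domains with a median covered part of 71.7%. Their ratios were -0.50 (dHx over WT, High), -0.35 (Middle) and -0.68 (High over Negative, dHx), and 14.8% passed 1.5-fold for dHx over WT at Negative. With the repeated gene clusters kept there were 335 domains, with a promoter CpG content of 0.556 and a covered part of 62.2%. Their ratios were 0.20 (dHx over WT, Negative), -0.29 (High over Negative, WT) and -1.04 (dHx), and the shares past 1.5-fold were 33.1, 45.7 and 65.1% in these comparisons. At a lower limit (a ratio of 5 to 4) and at 2-fold, the shares past the limit were 59.0 and 32.1% (dHx over WT, High), 54.5 and 25.6% (Middle), 37.8 and 7.69% (Negative), 49.4 and 12.2% (High over Negative, WT) and 64.7 and 31.4% (dHx).

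In settings added after seeing the data, either end of a gene stood in 51.9% of domains. In the 52 domains with an end of a coding gene, histone genes included, the median ratio was -0.018 for dHx over WT at High, 0.041 at Middle, against -0.12 over all domains, and -0.12 for High over Negative in dHx. The cause of these shifts was not tested. No paired analysis was possible because each group has 1 pooled list, which also left no replicate to leave out. Depth is known only as the fitted background, which was lowest in dHx High.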
